A study of Mus musculus with 12 samples.

Results

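Accessible chromatin was compared between granulocyte-monocyte progenitors (GMP) of mice with and without an enhancer of Spi1, which encodes the transcription factor PU.1. The libraries were chosen by their labelled cell type and genotype, which gave 6 of the 12 ATAC-seq libraries of the study, 3 per genotype. The other 6 came from LSK cells (Lin- Sca-1+ c-Kit+), which hold the stem cells, and were used to estimate the spread and for a side by side comparison. Both groups were bone marrow cells sorted as Lin- Sca-1- c-Kit+ Cd16/32+ from littermates on the C57BL/6 background at 8 to 12 weeks of age. The groups were WT-GMP, from mice with the genotype WT, and URE-GMP, from preleukemic mice with the genotype UREd/d. These mice lack the upstream regulatory element (URE) of Spi1 in every cell of the body, so the cells were also formed from mutant stem cells. The study used 3 mice per genotype and cell type. The gate used c-Kit, Sca-1 and Cd16/32, so a difference at Kit is not independent of how the cells were chosen.

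PU.1 is an ETS family factor that binds purine-rich sites in enhancers and promoters of blood cells, and the URE is an enhancer that raises Spi1 transcription in stem and myeloid cells. GMP are progenitors committed to the granulocyte and monocyte lineages. High PU.1 levels are known to go with the monocyte and dendritic cell fates, whereas C/EBP factors such as C/EBPα and C/EBPε drive the granulocyte fate. ATAC-seq measures how often a transposase cuts within a region of open chromatin, and the accessibility of a region near a gene is not the expression of that gene.

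Total counts over the 121336 regions ranged from 24225870 to 62204826 per GMP library. Pearson correlations of log2 CPM across regions were 0.975 to 0.988 within URE-GMP, 0.953 to 0.973 within WT-GMP and 0.760 to 0.833 between the genotypes. WT-GMP replicate 3 was the least similar to its group, at 0.953 and 0.970. Regions at a start site of the GMP markers Mpo, Elane, Prtn3, Ctsg, Ms4a3 and Cebpe had higher accessibility in WT-GMP compared to WT-LSK, by log2 fold changes of 1.47 (Prtn3) to 4.65 (Ms4a3), whereas those of the stem cell markers Meis1, Hlf and Mecom were lower, at -0.72, -0.52 and -0.19. A difference was not shown for Procr (log2 fold change 0.19, adjusted p = 0.425), and Ly6a, which encodes Sca-1, had no region. At the deleted element, 3 of 5 regions held 0 to 2 counts in each URE-GMP library, against means of 7.89 to 43.8 CPM in WT-GMP. Of the other 2, 1 fell by 2.14 on the log2 scale and 1 showed no detectable change (log2 fold change 0.14, adjusted p = 0.693).

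Some windows of the regions described here are printed first, because the 2 directions of change differed in the binding motifs they held. The windows are 120 bases of the plus strand of GRCm38 from RefSeq, with positions counted from 1, and capitals mark every match to 1 of 4 motifs on either strand. The motifs were GAGGAAGT for PU.1, AACCACA for RUNX factors, TTGCNNAA for C/EBP factors and AGATAAG for GATA factors, and matches of different motifs may overlap. The first windows lie in regions with higher accessibility in URE-GMP, and their capitals are C/EBP matches. They were chosen as examples, since the C/EBP motif was in 31.1% of all regions called higher and in 15.3% of those called lower. The gains named below near Cd180, Hdc and Thy1 held none of the 4 motifs. Some of the losses named below, such as those in Mitf and near Id2, held a C/EBP match. All windows are named by the nearest gene.
Ngp, chr9:110415355-110415474: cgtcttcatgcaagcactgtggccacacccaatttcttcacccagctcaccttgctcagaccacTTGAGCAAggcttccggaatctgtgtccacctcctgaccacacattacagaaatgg
Camp, chr9:109861428-109861547: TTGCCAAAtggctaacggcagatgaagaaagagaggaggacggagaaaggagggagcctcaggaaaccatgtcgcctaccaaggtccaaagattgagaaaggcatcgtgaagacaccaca
S100a9, chr3:90695838-90695957: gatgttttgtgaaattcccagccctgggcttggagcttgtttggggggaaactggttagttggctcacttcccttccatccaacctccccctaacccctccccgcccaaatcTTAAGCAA
Zeb2, chr2:45085529-45085648: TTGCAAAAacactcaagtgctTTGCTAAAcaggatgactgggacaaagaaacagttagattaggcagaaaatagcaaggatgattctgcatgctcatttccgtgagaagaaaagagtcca
Erg, chr16:95388406-95388525: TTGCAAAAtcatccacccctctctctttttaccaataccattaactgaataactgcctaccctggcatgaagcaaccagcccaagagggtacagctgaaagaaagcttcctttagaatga

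The next windows, also chosen as examples, lie in regions with lower accessibility in URE-GMP. Of all regions called lower, 20.6% held the PU.1 motif. The Csf3r and Cebpd windows each hold a PU.1 match, and the region near Cebpa, which had the largest loss among the granulocyte genes, holds none of the 4 motifs.
Csf3r, chr4:126030864-126030983: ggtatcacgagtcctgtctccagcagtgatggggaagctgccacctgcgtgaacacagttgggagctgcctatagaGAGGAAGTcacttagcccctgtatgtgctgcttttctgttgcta
Cebpd, chr16:15986346-15986465: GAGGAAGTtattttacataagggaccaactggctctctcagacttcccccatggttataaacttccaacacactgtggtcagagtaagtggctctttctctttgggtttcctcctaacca
Cebpa, chr7:35099642-35099761: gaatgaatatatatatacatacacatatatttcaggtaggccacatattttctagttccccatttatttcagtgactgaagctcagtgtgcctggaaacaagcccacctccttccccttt

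Across the genome, 48159 regions were called between URE-GMP and WT-GMP, which was 39.7% of all regions. The call required an adjusted p under 0.05 by edgeR's quasi-likelihood test and a log2 fold change, URE-GMP minus WT-GMP, over 1 or under -1. There were 18974 regions with higher accessibility in URE-GMP (15.6% of all regions) and 29185 with lower accessibility (24.1%). The median log2 fold change was 0.06. At any fold change, 29.6% of all regions were higher and 31.2% lower with an adjusted p under 0.05, which is the background for the promoter values below 2-fold. These shares are the background for each gene list, since a region picked at random would also often be called. The URE-GMP and WT-GMP libraries did not overlap at 65.4% of all regions and at 98.1% of called regions. A lack of overlap at a region below is to be read beside these values. Regions were assigned to the protein-coding gene with the nearest start site within 100 kb. In bulk cells, fewer cells of a type that opens a region and less opening in each cell cannot be told apart.

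The balance of gains and losses was not the same in every list. Of 187 regions near granulocyte genes, 42 were higher (22.5%) and 33 were lower (17.6%), with a median log2 fold change of 0.35. Of 324 regions near monocyte genes, 22 were higher (6.79%) and 121 lower (37.3%), with a median of -0.54. Mast cell and basophil genes had 175 regions, of which 18 were higher (10.3%) and 53 lower (30.3%), with a median of 0.01. Stem cell genes had 404 regions, of which 43 were higher (10.6%) and 119 lower (29.5%), with a median of -0.28. Gata2 and Kit stood in both of the last 2 lists.

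The excess of gains over losses in the granulocyte list depended on the scaling and on 1 library. Lower regions made up 44.0% of its calls, but 54.4% when libraries were scaled by their totals only and 55.2% with TMM on promoter regions. Without WT-GMP replicate 3 the list had 33 higher and 34 lower regions, so that 50.7% were lower. In each of these settings the share was below that of all regions, which was 60.6% in the main analysis, 65.1% and 65.4% with the 2 scalings, and 59.2% without the replicate. In the monocyte, mast cell and basophil, and stem cell lists lower calls were the majority under every setting tried.

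**Figure D1:**
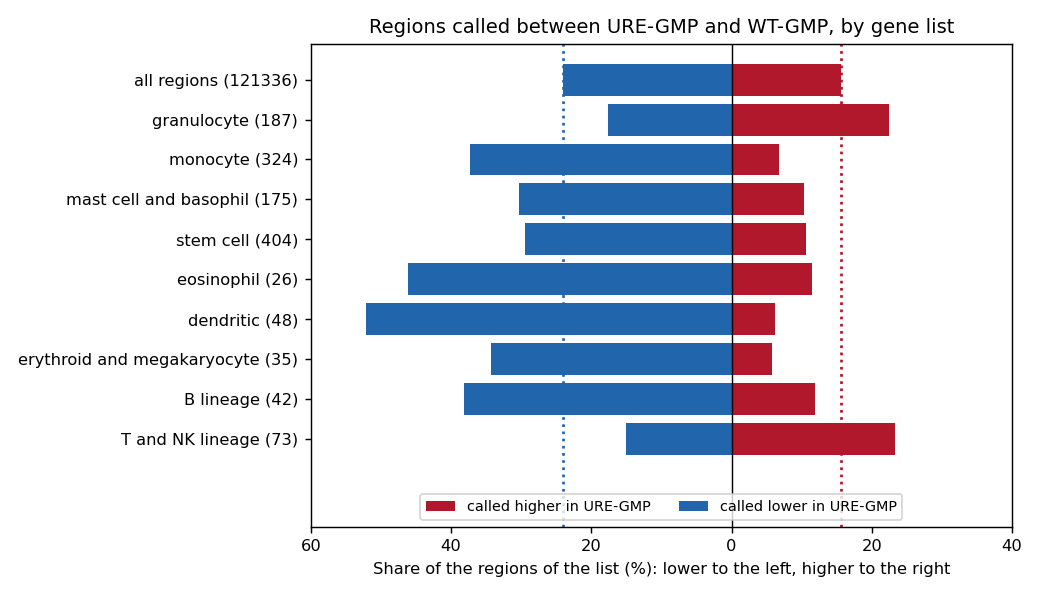
Share of the regions near the genes of each list that were called lower (blue, to the left) or higher (red, to the right) in URE-GMP, in percent of the regions of the list (number in brackets). Dotted lines mark the shares over all 121336 regions, 24.1% lower and 15.6% higher. The granulocyte and the T and NK lists lie past the red line and short of the blue line, and the other lists do the opposite.

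Near granulocyte genes, 21 of the 42 gains lay at genes grouped as late granule or calgranulin genes. The group also held Padi4 and Ly6g, which do not encode granule proteins and had 4 and 3 of these gains. This group had 21 higher and 6 lower of 61 regions, with a median log2 fold change of 0.57. Its members S100a8 and S100a9 were used in the paper as markers of neutrophil progenitors. The group of primary granule genes, which are active in GMP, had 6 higher and 8 lower of 41 regions. Of the 6 higher ones, 5 lay near Ctsg. The group also held Ms4a3 and Serpinb1a, which do not encode granule proteins. Ms4a3 had 4 lower and 0 higher regions, and Serpinb1a 3 lower and 1 higher. Granulocyte receptor genes had 4 higher and 7 lower of 32 regions, and the transcription factor genes Cebpa, Cebpd, Cebpe and Gfi1 had 11 higher and 12 lower of 53. Of 25 granulocyte genes with a region, 7 had only higher calls, 4 only lower calls, 10 both and 4 none, and Lcn2 and Chil3 had no region.

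The largest gain lay at chr9:110415223-110415607, 4332 bp upstream of Ngp, which encodes a neutrophil granule protein of the cathelicidin family. Its accessibility was 0.502, 0.629 and 0.230 CPM in WT-GMP replicates 1, 2 and 3, and 7.34, 8.01 and 4.07 CPM in URE-GMP. The groups were far apart, and replicate 3 was the lowest in either genotype. The log2 fold change was 3.83 (SE 0.34, adjusted p = 2.38e-07), and all 3 regions near Ngp were higher, the one over its start site rising from 2.28 to 11.3 CPM.

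Camp, the gene of the antimicrobial peptide cathelicidin, lies on the same chromosome. The region at chr9:109861338-109861702, 11903 bp upstream of it, had 1.38, 1.11 and 0.438 CPM in WT-GMP against 10.6, 9.19 and 6.47 CPM in URE-GMP (log2 fold change 3.21, SE 0.33, adjusted p = 8.81e-07). Every URE-GMP library was above every WT-GMP library by more than 4 times. The start site region of Camp rose from 8.33 to 28.6 CPM, a log2 fold change of 1.78.

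S100a9 encodes a subunit of calprotectin, an abundant cytosolic complex of neutrophils. Its promoter region at chr3:90695626-90696060 had 2.43, 3.76 and 0.714 CPM in WT-GMP compared with 16.8, 15.5 and 13.1 CPM in URE-GMP. This was a log2 fold change of 2.71 (SE 0.38, adjusted p = 1.83e-05), and 2.27 without WT-GMP replicate 3. That replicate was the lowest of the WT-GMP libraries at Ngp, Camp and S100a9, and at 35 of the 42 granulocyte regions called higher (83.3%), against 53.4% of all regions called higher. Summed over those 42 regions, accessibility was 202, 179 and 128 CPM in WT-GMP against 473, 471 and 428 CPM in URE-GMP. The regions were picked because they were called higher, so these sums describe them and do not test the difference.

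Other loci of the late granule or calgranulin group gained regions too. Near Padi4, a peptidylarginine deiminase of neutrophils, 4 of 11 regions were higher and 1 was lower, and near Ly6g, the surface marker of mature mouse neutrophils, 3 of 4 were higher. Fcnb, a ficolin of granules, had 3 higher of 10 regions. By contrast, Mmp8, which encodes neutrophil collagenase, had 2 lower regions and none higher of 5, and Ltf, which encodes lactoferrin, had 1 lower of 5.

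The genes of the primary granule group did not move together. At Ctsg, the gene of the serine protease cathepsin G, 5 of 6 regions were higher, with log2 fold changes of 1.01 to 1.81, and the region over the gene body rose from 48.4 ± 8.72 to 104.9 CPM. Mpo encodes myeloperoxidase. Its region with the most counts, at chr11:87800925-87808922, covers the start of a shorter protein-coding transcript within the gene and reaches past the gene's end. It had 238, 181 and 166 CPM in WT-GMP compared with 336, 313 and 371 CPM in URE-GMP. The groups did not overlap, yet the log2 fold change of 0.80 (SE 0.26, adjusted p = 0.0132) stayed under the threshold of 1. The region 108 bp downstream of an earlier Mpo start site had mean accessibility of 106.6 CPM in WT-GMP and was at 145.0 CPM in URE-GMP, a log2 fold change of 0.44 that was not called either. The promoter region of Elane, which encodes neutrophil elastase, also rose without passing it, with 12.5, 16.9 and 12.3 CPM in WT-GMP against 23.5, 23.2 and 25.0 CPM in URE-GMP and a log2 fold change of 0.78 (SE 0.20, adjusted p = 0.00375). None of the 5 regions near Prtn3, the gene of proteinase 3, was called. Near Ms4a3, which encodes a membrane protein typical of GMP, 4 of 6 regions were lower and none was higher.

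The transcription factor genes of the granulocyte lineage had small changes at their promoters and larger ones at distal regions. The Cebpa promoter region had 136, 106 and 109 CPM in WT-GMP against 135, 140 and 139 CPM in URE-GMP, so the groups overlapped, and the log2 fold change was 0.24 (SE 0.08, adjusted p = 0.0184). The region at chr7:35099536-35099867, 19592 bp upstream, had 6.78, 5.27 and 4.77 CPM in WT-GMP but 0.237, 0.278 and 0.218 CPM in URE-GMP. This was a log2 fold change of -4.48 (SE 0.27, adjusted p = 1.21e-08), the largest loss of the list. Its neighbour 20349 bp upstream fell from 18.1 to 0.907 CPM, whereas a region 13882 bp downstream of the Cebpa start rose from 0.761 to 2.93 CPM.

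Gfi1, a repressor needed for neutrophil formation, had 7 higher and 3 lower of 20 regions. Higher regions with log2 fold changes of 1.33 to 1.72 lay between 1712 and 6172 bp downstream of the start site, and a region 15955 bp downstream fell from 11.9 to 1.85 CPM. Its promoter region had 101, 73.0 and 63.1 CPM in WT-GMP compared with 109, 113 and 103 CPM in URE-GMP (log2 fold change 0.46, SE 0.14, adjusted p = 0.0117). The promoter region of Cebpe, a factor of late granulocyte maturation, had 37.5, 29.98 and 22.1 CPM in WT-GMP against 46.4, 43.8 and 40.0 CPM in URE-GMP, with a log2 fold change of 0.54 (SE 0.21, adjusted p = 0.0314). The groups did not overlap at either promoter, which was also the case at 65.4% of all regions. Without WT-GMP replicate 3 the Cebpe value was 0.38 and no longer passed (adjusted p = 0.104).

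Losses in the granulocyte list included regions of the growth factor receptor. Csf3r encodes the receptor of granulocyte colony-stimulating factor, and its intronic region at chr4:126030753-126031094 had 4.602, 6.61 and 4.06 CPM in WT-GMP compared with 0.301, 0.468 and 0.291 CPM in URE-GMP. This was a log2 fold change of -3.82 (SE 0.33, adjusted p = 2.05e-07), and 4 of 10 Csf3r regions were lower with 1 higher. Among losses of at least 5 CPM in WT-GMP, with 1 region per gene, the third largest was at chr16:15986263-15986724. This region lay 99207 bp from the start site of Cebpd, a C/EBP factor, and within an intron of Spidr. It had 7.28, 6.38 and 5.81 CPM in WT-GMP against 1.01, 0.989 and 0.727 CPM in URE-GMP (log2 fold change -2.82, SE 0.20, adjusted p = 3.98e-08).

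**Figure D2:**
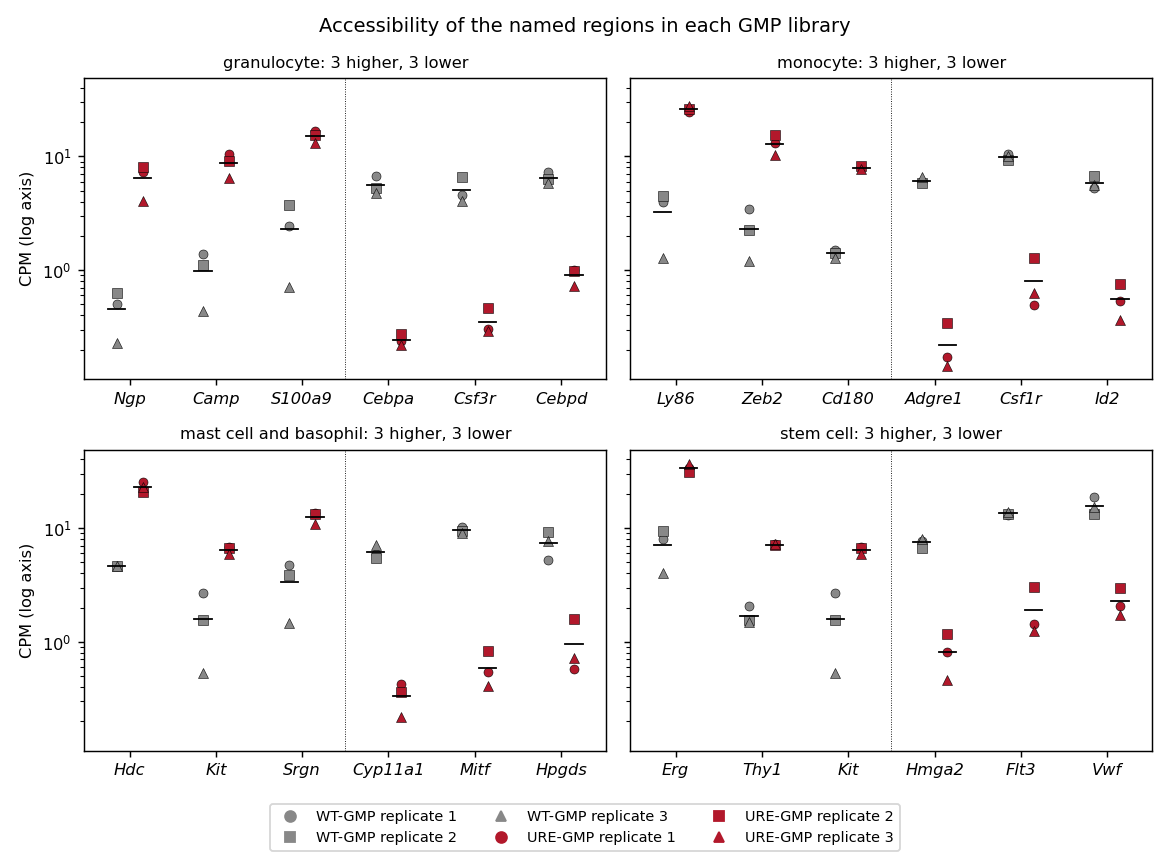
Accessibility of the regions with the 3 largest gains and losses of each list, in CPM on a log axis, with WT-GMP libraries in grey, URE-GMP libraries in red, replicates as circles, squares and triangles, and horizontal bars at the group means. In none of the regions do the groups overlap, which was required of them, and at every gain shown except Hdc WT-GMP replicate 3 lies below the other WT-GMP libraries.

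Near monocyte genes, losses were spread over nearly every gene. Of 28 genes, all with at least 1 region, 19 had only lower calls, 8 had calls in both directions and Ly6c2 had only a higher call. The receptor genes, which include those of growth factors, chemokines and bacterial products, had 29 lower and 0 higher of 58 regions, with a median log2 fold change of -1.02. Transcription factor genes had 40 lower and 8 higher of 136 regions, and genes of surface or secreted proteins had 52 lower and 14 higher of 130. Of 42 promoter regions in the list, 18 were lower and 0 higher, against 10.1% lower and 6.15% higher of all promoter regions.

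Csf1r, the receptor of macrophage colony-stimulating factor and a classical PU.1 target, had 6 lower and 0 higher of 12 regions. Its promoter region at chr18:61105538-61106019 had 12.9, 12.1 and 9.17 CPM in WT-GMP compared with 3.12, 4.93 and 1.502 CPM in URE-GMP (log2 fold change -1.82, SE 0.30, adjusted p = 8.41e-05). The region at chr18:61107622-61107997, in an intron 1957 bp downstream of the start, had 10.6, 9.27 and 10.003 CPM in WT-GMP against 0.495, 1.28 and 0.630 CPM in URE-GMP. It fell further than the promoter region, with a log2 fold change of -3.60 (SE 0.28, adjusted p = 7.41e-08).

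The largest loss of the list lay near Adgre1, which encodes the macrophage marker F4/80. The region at chr17:57341555-57341910, 16959 bp upstream, had 5.98, 5.81 and 6.57 CPM in WT-GMP compared with 0.172, 0.347 and 0.145 CPM in URE-GMP, a log2 fold change of -4.72 (SE 0.38, adjusted p = 1.05e-07). Near Id2, which encodes an inhibitor of basic helix-loop-helix factors, a region 45316 bp upstream fell from 5.87 ± 0.808 to 0.555 ± 0.2005 CPM (SD, n = 3), and of 23 Id2 regions 3 were higher and 2 lower, this one included. Msr1, a scavenger receptor of macrophages, had all 3 of its regions lower. Itgam, the integrin chain CD11b, had 6 lower of 8 regions, including the start site region, which fell from 8.78 to 2.36 CPM.

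Irf8 encodes a transcription factor that directs progenitors to monocytes. The Irf8 promoter region had 32.2, 26.9 and 24.6 CPM in WT-GMP against 17.5, 19.6 and 16.5 CPM in URE-GMP. All URE-GMP libraries lay below all WT-GMP libraries, with a log2 fold change of -0.64 (SE 0.12, adjusted p = 0.000279) that stayed within the threshold. Of 34 Irf8 regions, 10 were lower and 2 higher. The lower ones ranged from 16329 bp upstream to 73553 bp downstream of the start, with a log2 fold change of -3.38 at 6770 bp, and the higher ones lay 2578 and 3022 bp downstream.

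Gains near monocyte genes numbered 22, of which 9 were over 4-fold. The intronic region of Ly86 at chr13:37399287-37399806 had 3.93, 4.49 and 1.27 CPM in WT-GMP compared with 24.5, 26.2 and 27.5 CPM in URE-GMP, a log2 fold change of 3.02 (SE 0.38, adjusted p = 6.88e-06). Ly86 encodes MD-1, a partner of the receptor RP105, which Cd180 encodes. A region 47160 bp upstream of Cd180 rose from 1.41 ± 0.109 to 7.95 ± 0.245 CPM (SD, n = 3), and an intronic region of Zeb2, a zinc finger factor of monocytes and dendritic cells, rose from 2.30 ± 1.12 to 12.9 ± 2.64 CPM. The same genes lost more regions than they gained, with 12 lower and 4 higher for Ly86, 11 and 3 for Cd180, and 8 and 3 for Zeb2.

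**Figure D3:**
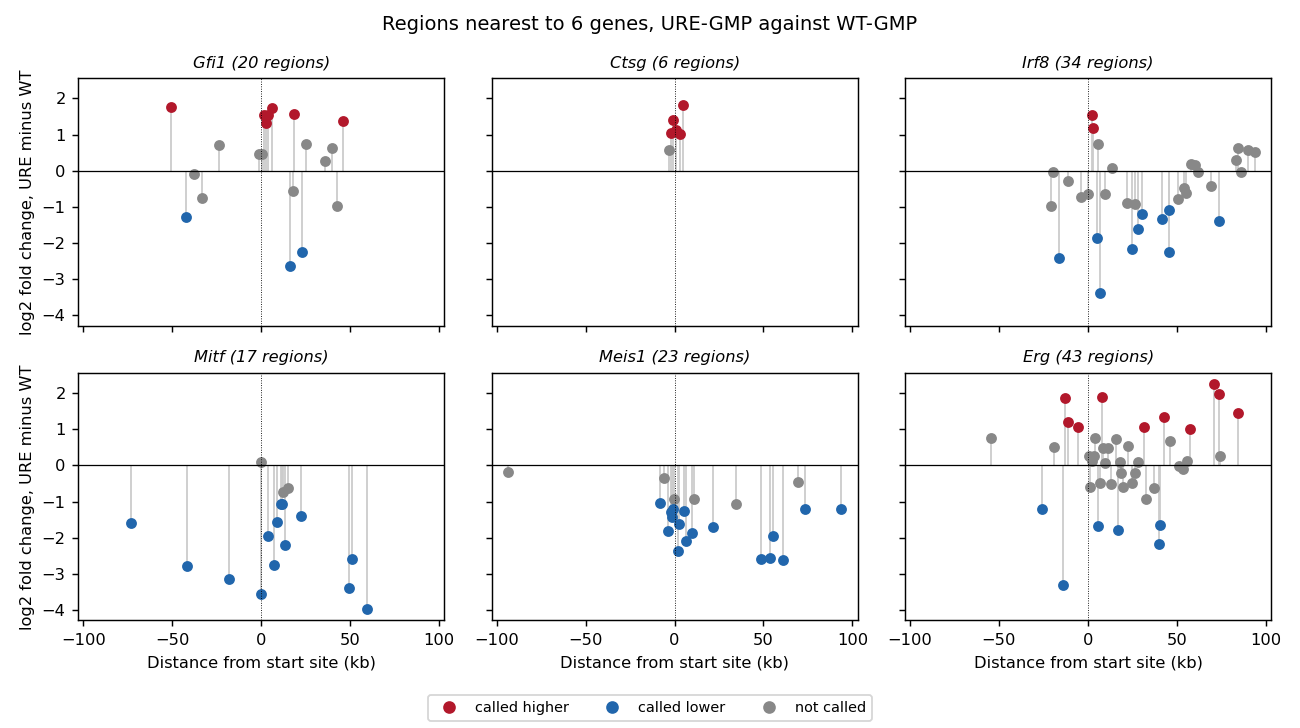
Log2 fold change, URE-GMP minus WT-GMP, of every region assigned to 6 genes, against the distance in kb of its centre from the nearest start site of a protein-coding transcript of the gene, with regions called higher in red, called lower in blue and not called in grey. Ctsg has 5 higher of 6 regions, Mitf 14 lower of 17 and Meis1 17 lower of 23, whereas Gfi1, Irf8 and Erg have calls in both directions.

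Near mast cell and basophil genes, the transcription factor genes lost regions and the protease genes had few calls. Mitf, which directs mast cell differentiation, had 14 lower and 0 higher of 17 regions, and Gata1 had both of its regions lower. Gata2, by contrast, had 2 higher and 2 lower of 16 regions. Protease and granule protein genes had 4 higher and 4 lower of 35 regions, receptor genes 5 and 14 of 49, and enzyme and cytokine genes 7 and 17 of 56. Of 22 genes with a region, 8 had only lower calls, 1 only higher calls, 7 both and 6 none, and Fcer1a and Mrgprb2 had no region.

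The intronic region of Mitf at chr6:97866511-97867039 had 10.2, 9.44 and 9.10 CPM in WT-GMP against 0.538, 0.833 and 0.412 CPM in URE-GMP, a log2 fold change of -3.98 (SE 0.24, adjusted p = 1.32e-08). The largest loss lay 25685 bp upstream of Cyp11a1, which encodes the enzyme of the first step of steroid synthesis. This region, at chr9:57980539-57980914, had 5.86, 5.46 and 7.08 CPM in WT-GMP compared with 0.431, 0.364 and 0.218 CPM in URE-GMP (log2 fold change -4.15, SE 0.30, adjusted p = 4.83e-08). Groups were separated by more than 10 times at both regions. The region at chr6:65114861-65115308 was assigned to Hpgds, a prostaglandin D synthase, but lies in a non-coding exon or UTR of Smarcad1, and it fell from 7.38 ± 2.03 to 0.962 ± 0.539 CPM.

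The 18 gains of this list lay near Kit (4 regions), Il4 (3), Gata2, Mcpt8, Srgn, Hdc and Cyp11a1 (2 each) and Csf2rb (1). The largest of at least 5 CPM in URE-GMP, with groups that did not overlap, were at Hdc, Kit and Srgn. Hdc encodes histidine decarboxylase, the enzyme that makes histamine, and its region at chr2:126606037-126606644, in a non-coding exon or UTR of the gene, had 4.602, 4.68 and 4.68 CPM in WT-GMP against 25.3, 20.7 and 23.0 CPM in URE-GMP. This was a log2 fold change of 2.31 (SE 0.17, adjusted p = 4.89e-08), with little spread in either group, although 6 of 14 Hdc regions were lower and 2 higher. Srgn encodes serglycin, the proteoglycan core of secretory granules in several myeloid cells, and a region 8147 bp upstream of its start rose from 3.37 ± 1.72 to 12.6 ± 1.501 CPM. A region 80664 bp upstream of Kit had 2.68, 1.55 and 0.530 CPM in WT-GMP compared with 6.80, 6.64 and 5.91 CPM in URE-GMP (log2 fold change 2.08, SE 0.40, adjusted p = 0.000331).

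Of 29 promoter regions in this list, 2 were higher (6.90%) and 8 lower (27.6%), and 5 of the losses were over 4-fold. Of all promoter regions, 6.15% were higher and 10.1% lower. A gene could hold several of these regions. With only the most counted region within 500 bp of a protein-coding start of each gene, 14 genes had 1. Of these, 2 were lower and 1 higher. The promoter region of Gata1 fell from 7.25 to 1.24 CPM. Mitf has several start sites, and a region 169 bp upstream of one of them fell from 2.91 to 0.244 CPM, whereas the region 28 bp downstream of another had 29.5 and 31.5 CPM and was not called. At Mcpt8, which encodes a protease of basophils, the promoter region rose from 8.12 to 23.9 CPM.

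The promoter regions of Cpa3, Gata2 and Kit were not called. The Cpa3 promoter region, at the gene of mast cell carboxypeptidase, had 2.51, 2.25 and 4.43 CPM in WT-GMP against 4.24, 3.23 and 7.24 CPM in URE-GMP, so the groups overlapped. The log2 fold change of 0.66 (SE 0.30) missed the threshold, with an adjusted p = 0.0685, but with the replicate number as a block the same value of 0.66 had an adjusted p = 0.00623. Each URE-GMP library was above the WT-GMP library of its number. The Gata2 promoter region had 34.6, 23.7 and 29.1 CPM in WT-GMP compared with 31.0, 28.8 and 30.9 CPM in URE-GMP, without a detectable difference (log2 fold change 0.06, SE 0.13, adjusted p = 0.719). The Kit promoter region had 37.0, 37.5 and 43.9 CPM in WT-GMP against 48.2, 43.9 and 46.1 CPM in URE-GMP (log2 fold change 0.22, SE 0.08, adjusted p = 0.0304).

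Near stem cell genes, losses outnumbered gains at genes of every role. Transcription factor genes had 83 lower and 26 higher of 269 regions (30.9% lower), receptor and surface protein genes had 25 lower and 12 higher of 94 (26.6% lower), and the other genes 11 lower and 5 higher of 41 (26.8% lower). Meis1, a homeodomain partner of HOX proteins that maintains stem cells, had 17 lower and 0 higher of 23 regions. Prdm16, a zinc finger regulator of stem cells, had 9 lower and 0 higher of 13, and Hlf, a bZIP factor of stem cells, 9 lower and 0 higher of 23. Of 27 genes with a region, 11 had only lower calls, 13 had calls in both directions, 1 had only a higher call and 2 had none. None of 70 promoter regions was higher and 21 were lower, whereas 6.15% of all promoter regions were higher and 10.1% lower. A gene could hold several of these 70 regions. With only the most counted region within 500 bp of a protein-coding start of each gene, 26 genes had 1. Of these, 2 were lower and 0 higher. Their summed accessibility overlapped between the genotypes, at 676 to 785 CPM in WT-GMP and 669 to 682 CPM in URE-GMP.

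The Meis1 promoter region had 32.3, 26.7 and 34.5 CPM in WT-GMP compared with 15.1, 17.6 and 16.7 CPM in URE-GMP, a log2 fold change of -0.92 (SE 0.11, adjusted p = 5.43e-06). Losses at Meis1 spanned the gene, from 8103 bp upstream to 93678 bp downstream of a start site, and the largest, 60948 bp downstream, went from 11.4 to 1.84 CPM. The Hlf promoter region had 13.3, 20.6 and 25.0 CPM in WT-GMP against 21.3, 21.2 and 21.9 CPM in URE-GMP, so WT-GMP spread on both sides of URE-GMP. A difference was not detectable there (log2 fold change 0.12, SE 0.15, adjusted p = 0.513), whereas a region 22877 bp downstream fell from 1.77 to 0.1847 CPM.

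The strongest losses of at least 5 CPM in WT-GMP lay at Hmga2, Flt3 and Vwf. Hmga2 encodes a chromatin architecture protein of fetal stem cells, and its region at chr10:120377213-120378059 had 7.74, 6.65 and 7.998 CPM in WT-GMP compared with 0.818, 1.18 and 0.460 CPM in URE-GMP (log2 fold change -3.15, SE 0.25, adjusted p = 1.09e-07). The region of Flt3, a cytokine receptor of early progenitors, at chr5:147363059-147363469 had 13.1, 13.4 and 13.9 CPM in WT-GMP against 1.44, 3.02 and 1.24 CPM in URE-GMP (log2 fold change -2.80, SE 0.28, adjusted p = 6.34e-07). In Vwf, the gene of von Willebrand factor, a region next to the start of a non-coding transcript at chr6:125603769-125604198 fell from 15.7 ± 2.90 to 2.26 ± 0.663 CPM (SD, n = 3), a log2 fold change of -2.78. Groups were widely separated at all of these regions.

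Erg and Thy1 stood out from the list by their gains. Erg, an ETS factor of stem cells, had 10 higher and 6 lower of 43 regions. Its intronic region at chr16:95388182-95388818 had 8.03, 9.36 and 4.01 CPM in WT-GMP compared with 33.4, 31.0 and 36.7 CPM in URE-GMP (log2 fold change 2.24, SE 0.29, adjusted p = 9.18e-06). Near Thy1, which encodes a surface protein of mouse stem and T cells, 6 of 20 regions were higher and 1 lower, and the region 38910 bp upstream rose from 1.70 ± 0.304 to 7.15 ± 0.0930 CPM. Mecom, the gene of the stem cell factor EVI1, had 6 higher and 13 lower of 40 regions.

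Markers of other cell types were read in the same fit, since the gate may hold other progenitors. Dendritic cell genes had 25 lower and 3 higher of 48 regions (52.1% lower), eosinophil genes 12 and 3 of 26, erythroid and megakaryocyte genes 12 and 2 of 35, and B lineage genes 16 and 5 of 42. T and NK lineage genes had 11 lower and 17 higher of 73. Summed over promoter regions, the eosinophil markers had 7.78 to 8.41 CPM in WT-GMP against 2.11 to 2.36 CPM in URE-GMP, and the dendritic cell markers 43.9 to 45.8 and 23.9 to 28.8 CPM. Sums overlapped for erythroid and megakaryocyte markers (45.8 to 71.5 against 37.0 to 49.8 CPM) and for B lineage markers (36.9 to 42.9 against 39.6 to 40.0 CPM), and did not for T and NK markers (27.3 to 35.0 against 35.8 to 37.9 CPM). Promoter regions were counted for 4 of 5 eosinophil, 5 of 7 dendritic, 6 of 10 erythroid and megakaryocyte, 5 of 9 B lineage and 6 of 9 T and NK genes. The part of these cells in the results above was not tested.

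Motif content differed between gains and losses. The PU.1 motif was found in 20.6% of the regions called lower (95% Wilson interval 20.1% to 21.0%, counting error only), in 2.99% of those called higher and in 10.5% of all regions. For the C/EBP motif the order was opposite, with 15.3% of lower, 31.1% of higher and 20.5% of all regions. The RUNX motif was in 14.6% of lower, 21.9% of higher and 17.3% of all regions, and the GATA motif in 5.93%, 4.22% and 5.45%. Median widths were 299 bp for lower, 305 bp for higher and 323 bp for all regions, so width differed little between both directions.

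Among regions with positive log2 fold changes, motif content also went with the size of the change. The PU.1 share was 5.96% at 0 to 1 and 1.88% above 4, while the C/EBP share was 20.9% and 38.8%. Among losses it did not rise with size, since the PU.1 share was 20.7% at -2 to -1, 21.3% at -3 to -2, 18.8% at -4 to -3 and 18.2% below -4, and the C/EBP share was 16.6%, 14.1%, 13.7% and 15.4%. In the lists, the C/EBP motif was found in 16 of 42 granulocyte regions called higher (38.1%) and 7 of 33 called lower (21.2%), and the PU.1 motif in 4 and 9. Of the granulocyte regions as a whole, 33.7% held the C/EBP motif, so this list was rich in it before any call. Among stem cell regions 16 of 43 higher (37.2%) and 22 of 119 lower (18.5%) held the C/EBP motif, against 2 and 23 with the PU.1 motif. Of the monocyte regions, 20 of 121 lower (16.5%) and 0 of 22 higher held the PU.1 motif. Over all regions the shares were 20.6% of lower and 2.99% of higher ones, so the monocyte losses were not richer in it. A match describes the sequence of a region and does not show that a factor binds there.

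**Figure D4:**
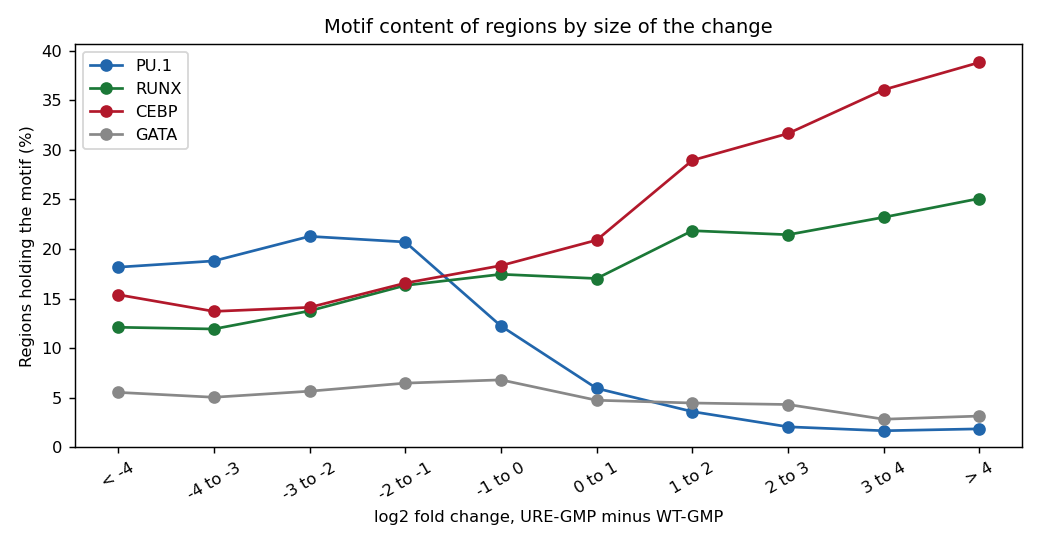
Share of regions in percent that hold each motif, on either strand, for regions grouped by the log2 fold change between URE-GMP and WT-GMP. The PU.1 line is at 18.2% below -4, highest at 21.3% between -3 and -2 and at 1.88% above 4, the C/EBP line is at 15.4%, 14.1% and 38.8% in the same groups, and each group holds at least 853 regions.

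The changes in GMP were set beside those in LSK, the earlier stage, where the genotypes were compared with other libraries. Of all regions lower in URE-GMP, 77.9% were also called lower in URE-LSK. The share was 80.2% for the monocyte list (97 of 121), 79.2% for the mast cell and basophil list (42 of 53), 75.8% for the granulocyte list (25 of 33) and 55.5% for the stem cell list (66 of 119). Of all regions higher in URE-GMP, 54.0% were also called higher in URE-LSK, and 19 of 42 granulocyte, 15 of 22 monocyte, 9 of 18 mast cell and basophil and 24 of 43 stem cell regions were. No region of the 4 lists was called in opposite directions. Over all regions this was also rare, at 87 of 18974 higher and 107 of 29185 lower ones.

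Whether a change differed between the stages was tested by the interaction of genotype and cell type, the log2 fold change in GMP minus that in LSK, which had an adjusted p under 0.05 at 16.8% of all regions. Among all regions called lower in GMP it passed at 25.2%, and in 3287 of these 7350 the loss was larger in GMP. Of the 119 stem cell regions called lower, 40 passed (33.6%), and 35 of these 40 had the larger loss in GMP. Meis1 alone had 17 of the 119, and the interaction passed at 15 of its 23 regions. Of the 121 monocyte regions called lower, 27 passed, and 8 of them had the larger loss in GMP. At the Meis1 promoter region the log2 fold change was -0.92 in GMP and -0.15 in LSK (interaction -0.77, SE 0.16, adjusted p = 0.00379). The Irf8 promoter region had 20.02 CPM in both genotypes of LSK, and its interaction was -0.64 (SE 0.17, adjusted p = 0.0180). The Csf1r promoter region had lost more in LSK, at -4.42, than in GMP, at -1.82 (interaction 2.60, SE 0.53, adjusted p = 0.00380).

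**Figure D5:**
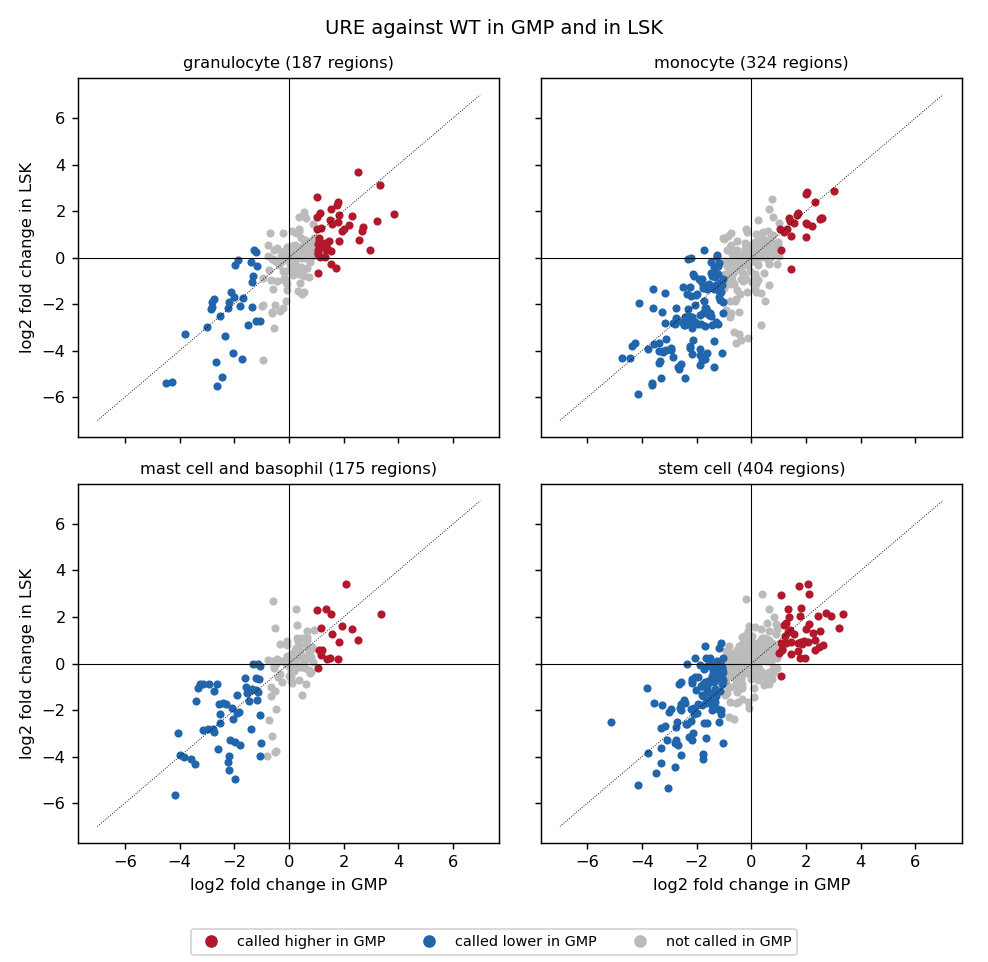
Log2 fold change between URE and WT in GMP (horizontal) and in LSK (vertical) for the regions of the 4 lists, with regions called higher in GMP in red, called lower in blue, not called in grey, and a dotted line of equality. Most called regions lie in the lower left and upper right parts. Of the 119 stem cell regions called lower in GMP, 66 were also called lower in LSK, and many of the others lie near 0 on the vertical axis.

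Outside the lists, the 4 largest gains lay near genes that stood in none of the lists. Olfm3, which encodes an olfactomedin, had a region at chr3:114858590-114858943 with 0, 0.0420 and 0 CPM in WT-GMP compared with 7.75, 7.27 and 6.44 CPM in URE-GMP. With 2 counts in the 3 WT-GMP libraries together, the ratio was 413 with a 95% counting interval of 114 to 3416. An intronic region of the LIM-only gene Lmo3 (4 counts in WT-GMP) had a ratio of 279 (109 to 1026), and a region near the endothelin receptor gene Ednra (6 counts) had 189.5 (86.9 to 517). The region near Sfrp1, a secreted WNT antagonist, went from 0.0853 ± 0.110 to 17.4 ± 4.03 CPM. In LSK the same 4 regions had 0.360 to 1.61 CPM in URE mice and 0.0359 to 0.0493 CPM in WT mice.

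The largest losses outside the deleted element left at most 0.208 CPM in any URE-GMP library. A region at chr9:104972793-104973159, in an intron of Cpne4 and assigned to Mrpl3, had 9.62, 13.3 and 11.0 CPM in WT-GMP against 0.0861, 0.208 and 0.0727 CPM in URE-GMP (log2 fold change -6.42, SE 0.34, adjusted p = 4.83e-09). At the start of Dusp3, a dual specificity phosphatase gene, accessibility fell from 9.47 ± 0.953 to 0.110 ± 0.0203 CPM, and in an intron of Tenm4, a teneurin gene, from 7.18 ± 2.001 to 0.0904 ± 0.0336 CPM. Each of these 3 regions was also called lower in URE-LSK, with log2 fold changes of -7.38, -5.98 and -5.07.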

How the data were processed

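ATAC-seq counts of 12 mouse libraries, 3 per group, were used. The authors deposited raw counts per region and library without normalization. Per the labels, cutadapt, Bowtie2, Genrich, bedtools and featureCounts were used on GRCm38, with versions not used here. Duplicates and reads outside the primary chromosomes had been removed, and peaks were called per group of cell type and genotype and merged, so calling pooled the replicates. Whether fragments or read ends were counted, and whether starts count from 0 or 1, is not given in the sources used here, and region coordinates are printed as deposited.

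Counts were fitted in R 4.3.3 with edgeR 4.0.16 (filterByExpr, which removed no region, TMM scaling, glmQLFit and a two-sided glmQLFTest) over all 12 libraries with 1 coefficient per group. The biological coefficient of variation was 0.185. P-values were adjusted by Benjamini-Hochberg (BH) over 121336 regions. The study's own methods used DESeq2 at the same thresholds, and this was run as an alternative. CPM are counts divided by TMM-scaled library totals.

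Regions were annotated with GENCODE M21. A region went to the protein-coding gene whose start site was nearest to its edge, within 100 kb (106159 regions), and distances are from its centre. A promoter region lay within 500 bp of any start site. All 145 list genes were in the annotation. The members and lists were chosen with earlier results of these data known. Named were the 3 largest gains and losses per list, 1 per gene, with at least 5 CPM in the higher group and no overlap between groups, 12 promoters, the 4 largest in each direction over all regions, and the deleted element. Other genes are given by their counts, or as examples chosen after their values were seen. The script was tested on simulated data.

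At the depth of these libraries 3 counts, the floor used, were 0.0520 to 0.126 CPM in GMP. Intervals cover counting error only. Same-numbered WT-GMP and URE-GMP libraries deviated together, with correlations of 0.117, 0.236 and 0.422 for replicates 1, 2 and 3, all over the limit of 0.1 set for pairing. What a number shares is not given in the sources used here. Blocking on the replicate number was an alternative. The others were DESeq2 1.42.0, 5 other scalings or offsets (RLE, library size, loess with a span of 0.3 from limma 3.58.1, GC content, TMM on promoter regions), no filter, a minimum mean CPM of 2, only the GMP libraries, assignment within 5 kb of a start site or 10 kb of a gene, and leaving out each GMP library in turn.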

Additional observations from a re-analysis of the deposited data

Results flagged for a closer look

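The results below stood out because the effect of the genotype differed between GMP and LSK in the test of the interaction (BH-adjusted edgeR quasi-likelihood test, log2 fold change in GMP minus that in LSK). Of the 23 regions named in the 4 lists, 6 passed this test (26.1%), against 16.8% of all regions, 25.2% of those called lower and 18.7% of those called higher in GMP. All of the 23 were chosen as called regions, so their share is to be read beside the last 2 values.

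The loss was larger in GMP at the region near Cebpd (-0.90, SE 0.27, adjusted p = 0.0325), in the Csf1r intron (-1.43, SE 0.38, adjusted p = 0.0181), at the region assigned to Hpgds (-2.02, SE 0.46, adjusted p = 0.00697), and at the promoter regions of Irf8 (-0.64) and Meis1 (-0.77). In LSK, the Hpgds region had gone from 7.49 to 4.05 CPM only, and the promoter regions of Irf8 and Meis1 were not shown to change.

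The loss was smaller in GMP at the region near Cyp11a1 (1.49, SE 0.47, adjusted p = 0.0392), at the Flt3 region (1.66, SE 0.40, adjusted p = 0.0105) and at the Csf1r promoter region (2.60). Within the Csf1r locus the promoter and the intronic region thus had interactions of opposite sign, and in URE-GMP the promoter region kept 3.18 CPM against 0.174 CPM in URE-LSK.

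The gain was larger in GMP at the Hdc region (0.82, SE 0.23, adjusted p = 0.0232), where URE-LSK also gained, and at the region near Olfm3 (5.72, SE 1.52, adjusted p = 0.0170), where both WT groups were near 0. At the Cebpe promoter region (1.03, SE 0.31, adjusted p = 0.0317) the log2 fold change was 0.54 in GMP and -0.49 in LSK. The LSK change alone did not pass (adjusted p = 0.0829).

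Some of these interactions no longer passed when 1 library was left out. At Cyp11a1 the adjusted p was 0.0503 without WT-GMP replicate 1, 0.0571 without WT-GMP replicate 2, 0.122 without URE-GMP replicate 1 and 0.0850 without URE-GMP replicate 2. At Cebpd it was 0.0575 without WT-GMP replicate 2 and 0.0722 without URE-GMP replicate 3. The Cebpe promoter region had 0.0766 without URE-GMP replicate 1 and 0.0520 without URE-GMP replicate 2, and the Hdc region 0.0715 without URE-GMP replicate 1.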

How the results depend on the processing

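Of 220 recomputed counts and shares, 194 stayed within 1.5 times of the reported value, and of 749 recomputed values of single regions, 700 kept their direction and their side of the threshold.

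The filter on low values moved most counts, since fewer regions were tested. At a minimum mean CPM of 2, calls were 8046 higher and 13812 lower regions, with 19 and 18 in the granulocyte, 13 and 74 in the monocyte, 9 and 28 in the mast cell and basophil and 18 and 66 in the stem cell list, and 22.4% of lower regions held the PU.1 motif. Within 5 kb of a start site fewer regions were assigned, with 22 higher and 11 lower granulocyte, 4 and 36 monocyte, 6 and 11 mast cell and basophil and 2 and 26 stem cell regions. Inside genes or within 10 kb of them, 21 granulocyte regions were lower.

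With loess offsets, 40 monocyte, 31 mast cell and basophil and 66 stem cell regions were higher, and the PU.1 share was 21.2%. With GC content offsets, 38 monocyte and 29 mast cell and basophil regions were higher. The cause was not tested. Lower regions made up 60.6% of all calls in the main analysis, 43.8% with loess, 47.1% with GC content offsets and 65.4% with TMM on promoter regions, and 44.0%, 28.9%, 30.1% and 55.2% of the granulocyte calls. The median over all regions lay between -0.07 and 0.21 under these scalings. Leaving out each GMP library gave 18407 to 19382 higher and 28139 to 30044 lower regions.

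Small promoter changes reversed. The Cebpa value was -0.020 with loess. Gata2 was -0.058 by library size, -0.091 with loess, -0.077 with GC content offsets, -0.062 with TMM on promoter regions, -0.017 with a mean CPM of at least 2 and, when each library was left out, -0.066 (without WT-GMP replicate 2) to 0.158. Hlf was -0.0063, -0.029, -0.012 and -0.020 with the first 4 of these, and -0.126 (without WT-GMP replicate 1) to 0.332 when each library was left out. The region in the Spi1 window that was not called was -0.088 without WT-GMP replicate 2, -0.038 without WT-GMP replicate 3, -0.0056 without URE-GMP replicate 2, and 0.65 without WT-GMP replicate 1. The promoter regions of Cebpa, Cebpe and Kit were not called, but their adjusted p, which passed in the main analysis, no longer passed under several settings. The same held for the Mpo region and the Gfi1 promoter with loess (adjusted p = 0.0702 and 0.127). With the replicate block, the Cpa3 promoter passed on adjusted p (adjusted p = 0.00623) but not on fold change. At no other named region did the adjusted p between the genotypes in GMP then change its side of the threshold. The interaction then also passed at the regions near Ngp (1.99, adjusted p = 0.0360) and Lmo3 (4.81, adjusted p = 0.0132).

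Precision was limited by the 3 libraries per group, and accessibility under 0.126 CPM was not measured in every library.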

Other observations

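Among the genes of other lineages, Bcl11b was chosen after its values were seen. It encodes a zinc finger factor that commits progenitors to the T cell lineage. In URE-GMP, 10 of its 15 regions were higher and 2 lower. The largest gain, 38641 bp downstream of its start, went from 0.212 to 12.2 CPM (log2 fold change 5.95), and its value in LSK was 2.68. A region 81020 bp upstream rose from 0.368 to 4.36 CPM. The other T and NK genes had 7 higher and 9 lower regions in all, and Il7r, which encodes the interleukin 7 receptor, had 4 lower of 5.

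Some loci of other lineages had every region lower in URE-GMP. These were Blnk, an adaptor of B cell receptor signalling (5 of 5), Pf4, a platelet chemokine (3 of 3), and Hbb-bt, an adult beta globin (3 of 3). Il5ra, the interleukin 5 receptor of eosinophils, had 4 lower of 5, and Siglech, a marker of plasmacytoid dendritic cells, 3 of 4. These genes were also named after their values were seen.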
